A study of Mus musculus with 2 samples.

Results

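The data are ATAC-seq peak lists of hepatic stellate cell nuclei, and the genes described here are 10 microRNA genes linked to stellate cells, myofibroblasts and fibrosis. They are Mir21a, Mir29a, Mir29b-1, Mir143, Mir145a, Mir199a-2, Mir214, Mir221, Mir222 and Mir27b. No threshold on a measured value was used to choose these names, but earlier results of these data were known. They are 10 of the 1228 microRNA genes in the RefSeq table of the mouse assembly used, and they form 6 separate loci, because 4 pairs lie close enough for their windows to overlap. A peak was assigned to a gene when any base of it lay within 20 kb of the gene, and it is called replicated when an entry of replicate A and an entry of replicate B share at least 1 bp.

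ATAC-seq marks accessible DNA by the insertion of sequencing adapters by the transposase Tn5. The nuclei came from livers of healthy, chow-fed C57BL6/JBomTac mice with mCherry-Rpl10a at ROSA26 and Tg(Lrat-cre), in which the Lrat promoter drives Cre. They were sorted on mCherry-RPL10A, so the label follows past Cre activity. There were 2 samples, replicates A and B of 1 group, and both carried these alleles. No condition was set against another. The labels do not say that the replicates came from separate animals, so differences between them may be technical, and the age of the mice is not used here.

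A microRNA is cut from a hairpin in a long primary transcript, and its seed, bases 2 to 8 of the mature RNA, pairs with target messages. Many microRNA genes have no promoter of their own near the hairpin: they are read out with a host gene or from a start site far upstream, and several hairpins can share 1 transcript. In stellate cells and myofibroblasts, miR-21 and the miR-199a and miR-214 cluster are known as profibrotic, miR-29 as a repressor of collagen messages, miR-143 and miR-145 as microRNAs of smooth muscle, miR-221 and miR-222 as rising with activation, and miR-27b as a regulator of fat storage.

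The main mature sequences are shown because the seed decides which members could act on the same messages. The RefSeq table of GRCm38.p6 held mature sequences for 8 of the 10 genes, and in each line the seed is in capitals.
miR-21a-5p: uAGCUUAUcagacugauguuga
miR-29a-3p: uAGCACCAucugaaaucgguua
miR-29b-3p: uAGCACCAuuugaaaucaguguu
miR-199a-5p: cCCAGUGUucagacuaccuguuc
miR-199a-3p: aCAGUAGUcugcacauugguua
miR-214-3p: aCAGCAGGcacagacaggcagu
miR-221-3p: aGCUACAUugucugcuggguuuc
miR-222-3p: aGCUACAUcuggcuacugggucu
miR-27b-3p: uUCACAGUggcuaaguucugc

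Only 2 seeds are shared between members, and these pairs were compared position by position without gaps. In this way miR-29a-3p and miR-29b-3p have the same seed and differ at 4 of 22 bases. The pair of miR-221-3p and miR-222-3p has the same seed but differs at 12 of 23, a count that an alignment with gaps could lower. These same-seed pairs are the members without a replicated peak, as given below.

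Replicate A held 36577 entries and replicate B 28794, and 64.1% of the entries of A were replicated. Depth is unknown, since peak lists give no read counts. Replicate B carries peak names that start with a word for oil, which its label (chow, control) does not mention. It was grouped by the label, and entries of A without B are counted beside the replicated ones. Of 10 stellate marker genes, 9 had a replicated peak within 1 kb of a gene end, where 41.9% of all protein-coding genes had one. None of 6 hepatocyte, 6 Kupffer and myeloid, 4 lymphocyte or 4 cholangiocyte marker genes had a replicated gene-end peak. Among 6 sinusoidal endothelial markers Stab1 and Kdr had one, and among 4 portal fibroblast and smooth muscle markers Myh11 did. Counted in the gene or within 20 kb, peaks were found for none of the hepatocyte and cholangiocyte genes, 1 Kupffer and myeloid gene, 3 lymphocyte genes, 4 endothelial genes, 3 portal fibroblast and smooth muscle genes and all 10 stellate genes.

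Of the 10 microRNA genes, 6 had at least 1 replicated peak within 20 kb, against 47.1% of all 1228 microRNA genes and 64.6% of protein-coding genes. The windows of protein-coding genes include the gene bodies, so more sequence was searched per gene than for microRNA genes. With the entries of A alone it was 8 of 10, against 56.1% of all microRNA genes. The share of genes with a peak was thus not far from the background. The 6 were Mir21a, Mir143, Mir145a, Mir199a-2, Mir214 and Mir27b, which stand for 4 of the 6 loci, and 54.1% of all 896 microRNA loci with overlapping windows joined held a replicated peak. The number of peaks per gene averaged 2 over the 10 genes and 0.882 over all microRNA genes, with medians of 1.5 and 0. The mean of 2 rests largely on Mir143 and Mir145a, where the same 6 peaks were counted for each gene. No other member had more than 3. With each peak counted once, the 6 loci held 12 replicated peaks, 8 entries in A alone and 1 in B alone.

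The position of the peaks relative to gene ends was counted as well. No protein-coding gene began or ended within 1 kb of any of the 12 replicated peaks, as one did for 54% of the 928 replicated peaks near any microRNA gene. Away from those ends, the same 6 of 10 genes had a replicated peak, against 26.8% of all microRNA genes. The mean was 2 peaks per gene against 0.41, with the shared peaks of Mir143 and Mir145a again counted for each gene. An end of a long noncoding RNA (lncRNA) gene was within 1 kb of 6 of the 12 peaks and of 11.1% of the 928. Of the 928, 5.06% were at such an end and at no protein-coding gene end. The 6 came from 2 loci, with 4 at Mir143 and Mir145a and 2 at Mir199a-2 and Mir214. Mir21a and Mir27b had none. These shares were computed after the positions of the 12 peaks had been seen, and peaks of 1 locus are not independent. They also depend on which genes lie in a window. The window of Mir199a-2 and Mir214, for example, lies deep inside the protein-coding gene Dnm3 and reaches neither of its ends. How many windows hold a protein-coding gene end was not counted.

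**Figure D1:**
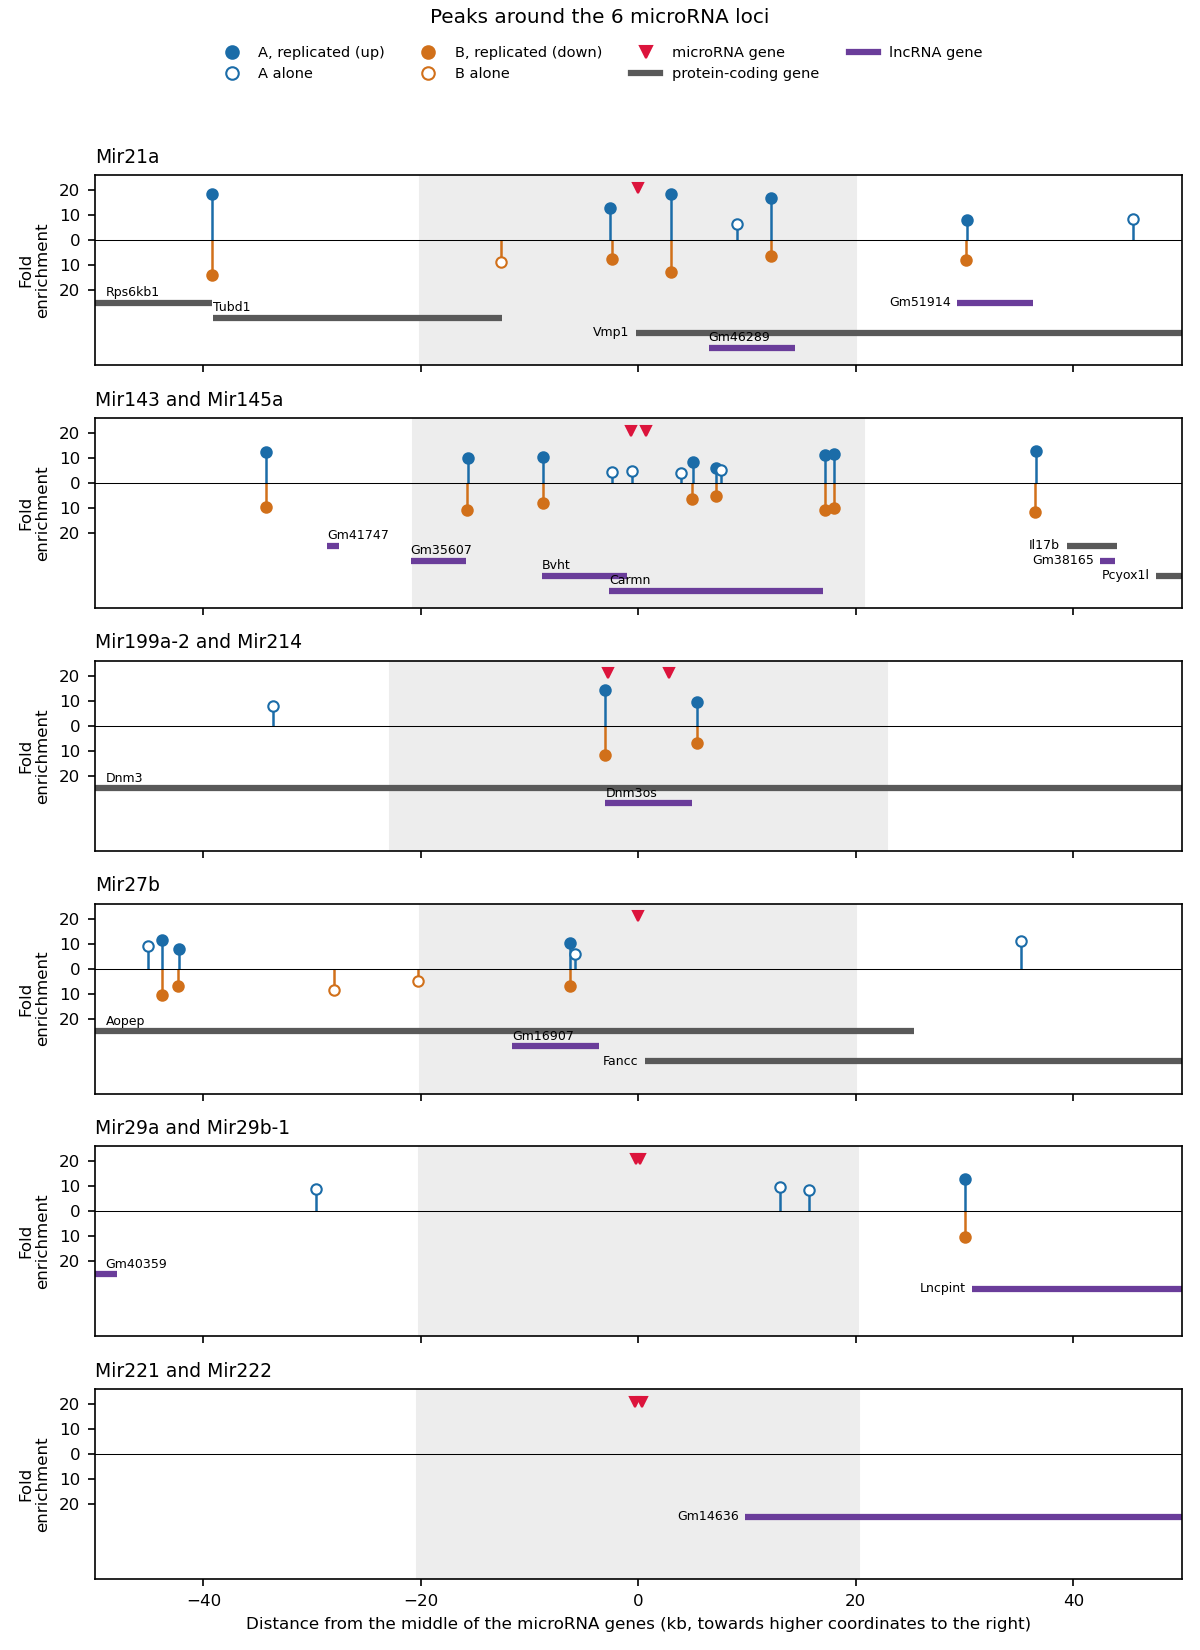
Peaks within 50 kb of the 6 microRNA loci, with the distance from the middle of the microRNA genes in kb on the x axis and the authors' fold enrichment on the y axis, upward for replicate A and downward for replicate B. Filled circles are replicated and open circles are entries of 1 replicate; the grey band marks the 20 kb window, triangles the microRNA genes and bars the protein-coding and lncRNA genes. The locus of Mir143 and Mir145a holds 6 replicated peaks in the band and that of Mir221 and Mir222 holds none.

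Mir143 and Mir145a, at chromosome 18 from 61649196 to 61649258 and from 61647825 to 61647894, had 6 replicated peaks each, and these were the same 6. Both lie inside Carmn, a lncRNA gene of cardiac and smooth muscle from 61645878 to 61665538 that serves as their host. At least 6 replicated peaks were found at 6 of the 1228 microRNA genes (0.489%), and at least 6 away from protein-coding gene ends at these 2 genes alone. The count depends on the window: with 10 kb each gene had 3 replicated peaks, and with 5 kb Mir143 had 1 and Mir145a had 0. A had 10 entries in the window and B had 6, and every entry of B was replicated.

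The 6 peaks were spread over the ends and the body of the noncoding genes of the locus. At the higher end of Carmn, 2 adjacent peaks lay at 61665475 to 61665900 and 61666388 to 61666669. Their fold enrichment, the authors' value over the local background, was 11.2 in A and 10.6 in B for the first and 11.7 in A and 9.99 in B for the second. Inside Carmn, a peak at 61653353 to 61653753 had 8.28 in A and 6.55 in B, and one at 61655591 to 61655784 had 6.06 in A and 5.28 in B. The remaining peaks lay at an end of Bvht, a lncRNA gene known from heart development in mice, with 10.5 in A and 8.13 in B, and at an end of the lncRNA gene Gm35607, with 9.89 in A and 10.8 in B. The lower end of Carmn had an entry in A alone, with 4.57, and Mir145a itself was overlapped by an entry in A alone, at 61647866 to 61648059, with 4.75.

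In fold enrichment these peaks were ordinary: they stood at or below percentile 63.6 of their list, and the one at 61655591 stood at percentile 4.91 of A and 1.02 of B. Their −log10 q, the caller's measure of evidence, was high for that fold. The peak at 61653353 had a −log10 q of 38.5 in A, where the median of the 3966 entries of A with a fold within 5% of its own was 10.7, and 99.9% of them were lower. In B it had 19.3 against a median of 7.14, with 99.8% lower. Over the 6 peaks, 96.1 to 99.9% of like-fold entries of A and 92.7 to 99.8% of those of B had a lower −log10 q. For the other 6 replicated peaks near members, the range was 27.2 to 77% in A and 24.9 to 73.4% in B. Outside the window, high shares were also found in Aopep, the host of Mir27b. They were 94.7% in A and 94.4% in B at 63256806, and 95.2% and 91.2% at 63258369. The remaining replicated peaks between 20 and 50 kb had 15.9 to 81.7% in A and 20 to 70.2% in B. The caller's fold is a ratio to a local background, which is not analysed here, and the part of that background in these values was not tested.

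**Figure D2:**
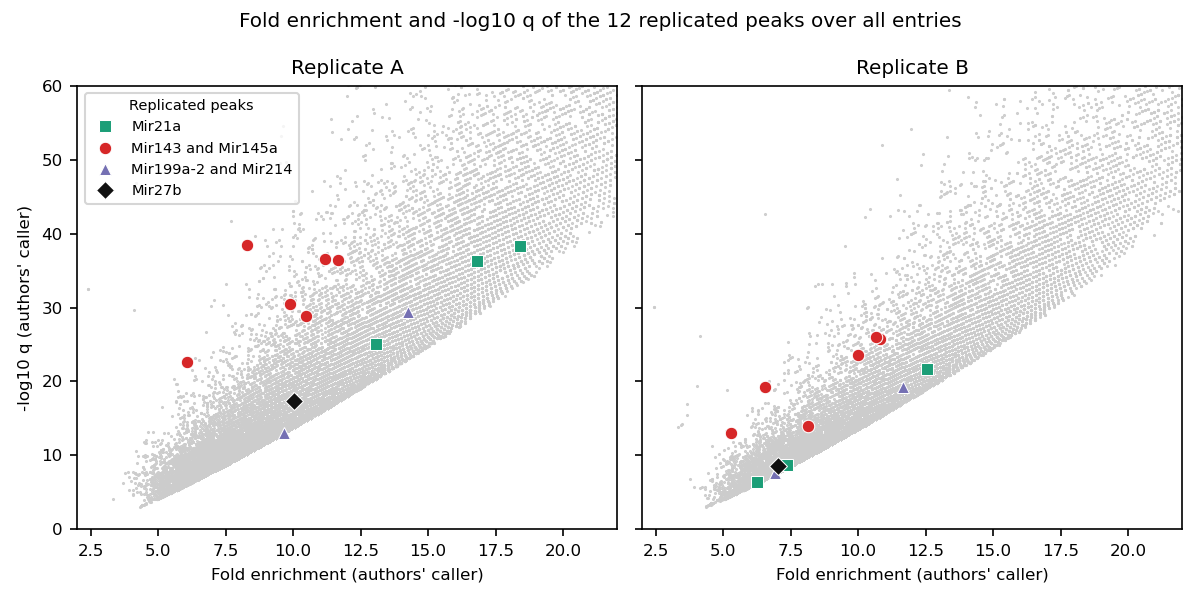
Fold enrichment on the x axis and −log10 q on the y axis, both from the authors' caller, for all entries of replicate A (left) and replicate B (right) in grey, with the 12 replicated peaks near the microRNA genes in colour by locus. The axes end at 22 and 60. The 6 peaks of Mir143 and Mir145a lie along the upper edge of the cloud in both replicates, at a fold of 6.06 to 11.7 in A.

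Mir199a-2 and Mir214 had 2 replicated peaks, 1 at each end of their host gene, and no entry of 1 replicate alone. Mir199a-2 lies at chromosome 1 from 162217814 to 162217923 and Mir214 from 162223368 to 162223477, both on the plus strand. Both hairpins are in the lncRNA gene Dnm3os, from 162217623 to 162225550, which runs opposite to and inside Dnm3, a dynamin gene. The first peak, at 162217472 to 162217740, covered the start site of Dnm3os and ended 74 bp before Mir199a-2. Its fold enrichment was 14.3 in A and 11.7 in B, at percentiles 78.3 and 68.0 of the lists, and the summits of the 2 entries lay 6 bp apart. Of the 1228 microRNA genes, 43 (3.5%) had a replicated peak within 100 bp. The second peak, at 162225944 to 162226154 just past the other end of Dnm3os, was weaker, with 9.66 in A and 6.92 in B. The start site of Dnm3 itself had no replicated peak, and 5 were found along its 496 kb.

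The promoter of Dnm3os is shown because the strongest of these peaks lies on it. It spans 250 bases before to 50 after the start site, at chr1:162217373-162217672 on the plus strand of GRCm38.p6, from RefSeq, with the CArG box, the motif bound by serum response factor, in capitals.
Dnm3os promoter: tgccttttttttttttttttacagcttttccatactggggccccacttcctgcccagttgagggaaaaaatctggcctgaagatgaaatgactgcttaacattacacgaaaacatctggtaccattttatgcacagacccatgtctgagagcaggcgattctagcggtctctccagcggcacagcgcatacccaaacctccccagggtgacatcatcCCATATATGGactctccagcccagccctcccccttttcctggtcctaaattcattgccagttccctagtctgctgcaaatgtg

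The entry of A covered bases 100 to 300 of this sequence. The CArG box occupied bases 218 to 227, beginning 33 bases before the start site. The summit of A fell on base 219 and that of B on base 213. A CArG box was found in 1.63% of the 32841 promoters of the table on either strand. The E-box (CANNTG) occurred 3 times in the Dnm3os promoter and in 72.3% of all promoters. The AP-1 motif, spelled TGANTCA, had no match there and was found in 7.81% of all promoters. The same held for the motif of TEAD factors, spelled GGAATG, which 14.7% of promoters contained. Nor was there a match to the letters AGATAA, bound by factors of the GATA family and present in 11.2%. The box for TATA-binding protein, searched as TATAAA, was absent from this window and present in 13.6%, and the palindrome of NFI was absent and present in 0.0365%. None of the matches overlapped another. The promoter held 5 CpG dinucleotides against a median of 7. A match describes these letters and is not a measured binding site, and a missing match says only that the letters are not in this window.

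Mir21a had 3 replicated peaks, a number reached by 10.1% of microRNA genes. It lies on the minus strand of chromosome 11 from 86584067 to 86584158, at the far end of Vmp1, an autophagy gene that spans 86583858 to 86683836. In human cells the primary transcript of miR-21 is known to start at a promoter of its own inside VMP1. The peak nearest upstream, 2.80 kb before the hairpin at 86586953 to 86587222 inside Vmp1, was the strongest of all 12, reaching 18.4 in A and 12.5 in B, at percentiles 91.4 and 73.3. A second upstream peak, 12.1 kb away at 86596210 to 86596501 inside both Vmp1 and the lncRNA gene Gm46289, had 16.8 in A and 6.23 in B. The third lay 2.29 kb downstream, past the end of Vmp1, with 13.1 in A and 7.37 in B, and its summits in A and B were 280 bp apart. One further entry in A alone, with 6.50, and 1 in B alone at an end of Tubd1, with 8.78, fell in the window.

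Among the 4 loci with a replicated peak, the median ratio of fold enrichment in A to that in B was highest at Mir21a, at 1.78, although its window held 4 entries in each replicate. This ratio was 2.7 at the peak 12.1 kb upstream, 1.78 downstream and 1.47 at the nearest upstream peak, where the median over all 23452 replicated peaks was 1.11. A ratio at least as high as that of the peak 12.1 kb upstream was found in 0.145% of replicated peaks. The fold of that peak stood at percentile 87.4 of A but 6.37 of B, so its B entry was among the weakest of the list. The summits of its 2 entries were 127 bp apart. The promoter peak of Vmp1, 100 kb from Mir21a at 86683776 to 86684059 and shared with the neighbouring gene Ptrh2, had 18.9 in A and 7.20 in B, a ratio of 2.63 that 0.183% of peaks reached. The remaining replicated peak in Vmp1, at 86614180 to 86614434, reached 7.96 in A and 7.87 in B. Over the 12 peaks near members A was higher in 11, and over all replicated peaks A was higher in 66.3%. With 2 samples of 1 group, a difference between animals, treatments or libraries cannot be told apart.

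The RefSeq table holds 3 promoters of Vmp1, and the one shown is the one under a replicated peak, at chr11:86683787-86684086 on the minus strand of GRCm38.p6, from RefSeq.
Vmp1 promoter: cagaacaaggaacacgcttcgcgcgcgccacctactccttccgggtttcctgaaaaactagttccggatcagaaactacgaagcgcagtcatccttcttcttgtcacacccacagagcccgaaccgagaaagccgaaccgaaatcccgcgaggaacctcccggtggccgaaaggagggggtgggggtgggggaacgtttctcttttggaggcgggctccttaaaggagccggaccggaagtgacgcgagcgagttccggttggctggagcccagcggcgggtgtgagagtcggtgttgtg

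It held 28 CpG dinucleotides and no match to any of the 7 motifs searched, the E-box included, and the peak of A covered 273 of its 300 bases. The other Vmp1 promoters of the table were not overlapped by the A entry of a replicated peak. The one whose start site is at 86683523 held 3 E-box matches. It ends at 86683773, right beside the A entry that begins at 86683776, and its overlap with the B entry was not tested.

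**Figure D3:**
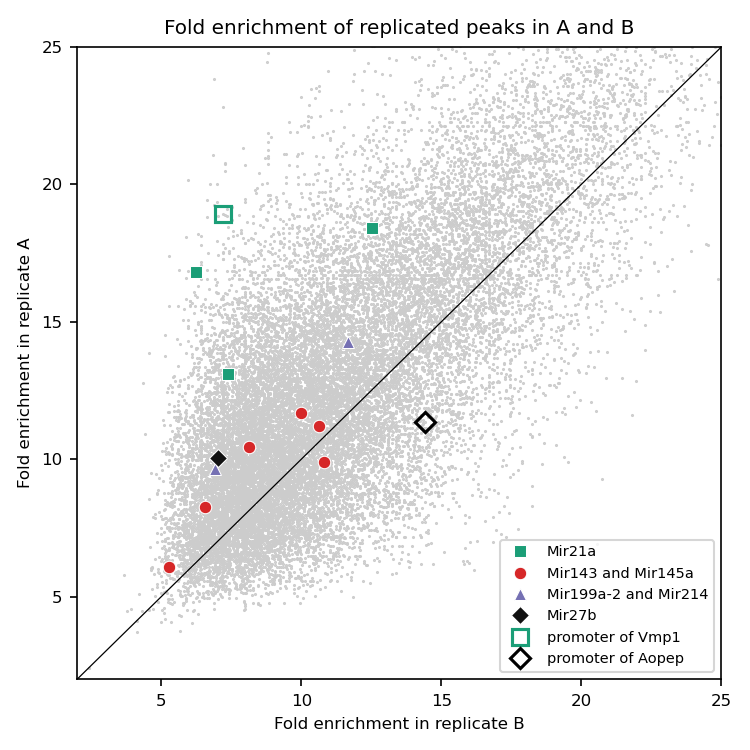
Fold enrichment in replicate B on the x axis and in replicate A on the y axis for all replicated peaks in grey, with the 12 peaks near the microRNA genes and the promoter peaks of Vmp1 and Aopep marked; the line marks equal values and both axes end at 25. The peaks of Mir21a and the Vmp1 promoter lie above the line, up to 18.9 in A beside 7.20 in B.

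Mir27b had 1 replicated peak. It is on the plus strand of chromosome 13 from 63300712 to 63300784, in a cluster with Mir23b, Mir24-1 and Mir3074-1 inside Aopep, an aminopeptidase gene of 361 kb. The peak lay 6.07 kb upstream of the hairpin, at 63294313 to 63294642, inside Aopep and the lncRNA gene Gm16907. Its fold enrichment was 10.0 in A and 7.04 in B, at percentiles 50.6 and 15.4. A second entry 5.66 kb upstream, with 5.87, was in A alone. The start of Aopep had a replicated peak with 11.4 in A and 14.4 in B, and 9 replicated peaks lay along the gene.

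Mir29a and Mir29b-1 had no replicated peak within 20 kb. They lie on the minus strand of chromosome 6 from 31062660 to 31062747 and from 31063023 to 31063093, outside any other gene of the table. Their window held 2 entries of A alone, 13.1 and 15.7 kb upstream of Mir29a, with a fold enrichment of 9.69 and 8.61. The nearest replicated peak was 30.1 kb upstream of Mir29a, at 31092834 to 31093053 beside an end of the lncRNA gene Lncpint, and its fold enrichment was 12.9 in A and 10.1 in B. The other genes with this seed, Mir29b-2 and Mir29c on chromosome 1, shared 1 replicated peak, 18.6 kb from Mir29b-2 at an end of their host lncRNA gene A330023F24Rik, with 12.2 in A and 11.9 in B.

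Mir221 and Mir222, on the minus strand of the X chromosome from 19146294 to 19146388 and from 19146893 to 19146971, had no entry in either replicate within 20 kb or within 50 kb. The nearest replicated peak was 912 kb from Mir222. The X chromosome held few peaks in general, with 740 entries in A and 665 in B, and 22.8% of its 92 microRNA genes had a replicated peak within 20 kb. Depth is unknown, so the absence of a peak does not show that the chromatin was closed.

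The window set how many peaks were counted. Near its limit, the farthest replicated peak inside the window was 18.5 kb from Mir145a. Outside it, an entry of B alone lay 20.2 kb from Mir27b, and the next replicated one was 29.7 kb from Mir29b-1.

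Relatives and sister clusters of the members were counted the same way. Of 13 such genes named, 12 matched the table, and 10 of these had a replicated peak, with 9 having one away from protein-coding gene ends. The shares of all microRNA genes were 47.1% and 26.8%. With overlapping windows joined, the 12 genes form only 7 loci, of which 5 held a replicated peak, against 54.1% of all joined microRNA loci. The 12 genes include 3 that share the window of Mir27b. Mir23a, Mir27a and Mir24-2, the sister cluster on chromosome 8, shared 3 replicated peaks, the strongest at a fold of 11.6 in A and 8.30 in B. Mir199b, which lies inside Dnm1 as Mir199a-2 lies inside Dnm3, had a replicated peak 174 bp away with 11.3 in A and 7.27 in B. Mir199a-1, inside Dnm2, had 2 replicated peaks, both at an end of Tmed1.

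Among 33 further microRNA genes linked to fibrosis, 20 had a replicated peak and 17 had one away from protein-coding gene ends, where the shares of all microRNA genes were 47.1% and 26.8%. Several of the 33 share peaks. With overlapping windows joined, 13 of their 23 loci held a replicated peak, near the 54.1% of all 896 joined loci. Mir34a, a target of p53, had 3, the strongest with a fold of 20.8 in A and 15.6 in B, and Mirlet7a-1 had 3. The 5 genes from Mir17 to Mir92-1, a cluster known for promoting growth, shared 2.

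MicroRNA genes known from other cells were counted as well, beside the 47.1% of all microRNA genes with a replicated peak and the 26.8% with one away from protein-coding gene ends. None of 15 microRNA genes of muscle and nerve had a replicated peak. Of 8 biliary and epithelial genes only Mir200c and Mir141, which share a window, had one. Of 5 blood and myeloid genes, Mir150, Mir142, Mir144 and Mir451a had one, each such peak lying at an end of a protein-coding gene, and Mir150 had 4 of them. Mir192 and Mir194-2 of the hepatocyte list shared 1 peak at such an end, and Mir194-1 had 1 away from protein-coding gene ends. Mir122, the main microRNA of hepatocytes, had no entry in either replicate. The endothelial Mir126a and Mir126b shared 2 replicated peaks. With overlapping windows joined, a replicated peak was held by 0 of 11 muscle and nerve loci, 1 of 5 biliary and epithelial and 3 of 4 blood and myeloid. It was 2 of 4 hepatocyte loci and the 1 endothelial locus, against 54.1% of all joined loci. These lists are small, their members share windows, and no test was made of their differences.

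**Figure D4:**
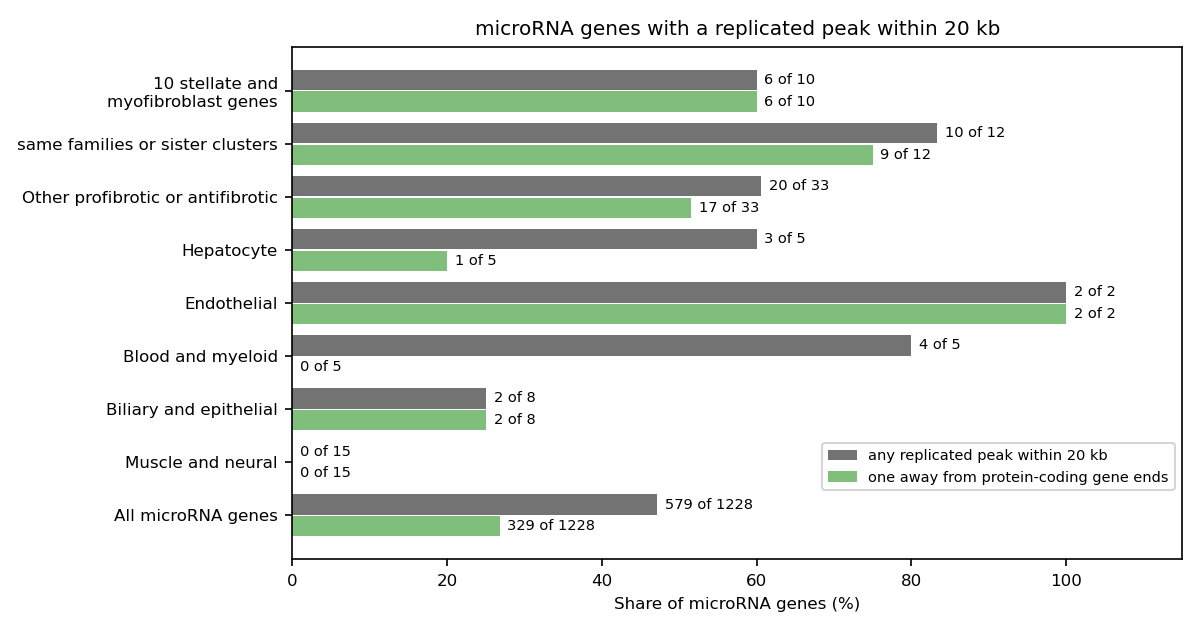
Share of microRNA genes with a replicated peak within 20 kb on the x axis, for the 10 genes described, 7 comparison lists and all microRNA genes; grey bars count any replicated peak and green bars those away from protein-coding gene ends, with the number of genes beside each bar. The 10 genes keep 6 of 10 in both, whereas all microRNA genes go to 329 of 1228 in the second.

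Genes of the machinery that makes microRNAs mostly had peaks. Of 22 biogenesis genes, 15 had a replicated peak at a gene end, against 41.9% of protein-coding genes, and 21 had one in the gene or within 20 kb, where 64.6% of protein-coding genes did. Ago2, which encodes the slicing Argonaute protein, had 6 replicated peaks in the gene or within 20 kb, and Tnrc6b, which encodes a silencing cofactor, and Tut7, which encodes a uridylyltransferase, had 5 each. Drosha, which encodes the nuclease that releases the hairpin, had 4, the strongest at a fold of 24.5 in A and 22.1 in B. Dicer1, which encodes the nuclease of the cytoplasmic step, had 1, with 16.7 in A and 14.6 in B.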

How the data were processed

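ATAC-seq peaks of 2 samples, replicates A and B of 1 group by their titles, were analysed as deposited, 1 narrowPeak list each. Per the submitters' processing notes, the tools were MACS2, HOMER, bedtools, Picard, SAMtools and STAR 2.7.0, named without role or order, with build mm10; they do not say whether reads were shifted for Tn5. The labels' protocols also name a kit for single-cell expression, whose role is not stated. The authors deposited a fold enrichment (a linear ratio over local background), −log10 p and −log10 q values, a score derived from the latter, and a summit offset. Values were not rescaled between the lists here.

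Tables were made with pandas 2.3.3, numpy 2.4.6 and scipy 1.17.1 in Python 3.11.15, and figures with matplotlib 3.10.9. Genes came from RefSeq for GRCm38.p6, which mm10 shares; coordinates are 1-based. Gene ends are the 1 kb around either end. All 10 genes matched by symbol. Counting was tested on 815 simulated loci, and 815 were recovered. With 1 group no test was made, and intervals of genes sharing peaks are not given. The genes and lists were chosen with earlier results of these data known. All members were named, as were their hosts, clustered microRNA genes, and up to 4 leading genes of each list; Mir199b, Mir29b-2, Mir29c, Mir122 and Dicer1 were chosen after their values were seen. Alternatives were the window, the overlap, stricter lists, summits, joined pieces and each replicate alone.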

Additional observations from a re-analysis of the deposited data

How the results depend on the processing

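The number of the 10 microRNA genes with a replicated peak stayed between 4 and 8 under every alternative, while the share of all microRNA genes ran from 21.3 to 64.3%. With a window of 5 kb the mean per gene was 0.5, the 6 loci held 5 replicated peaks, and 262 of all microRNA genes had one. With 10 kb the mean was 1.3. With 50 kb the loci held 19. With only the entries whose −log10 q exceeded their list's median, the mean was 1.1, the loci held 6 and the comparison lists had 26 genes with a peak in place of 41. With the 10000 strongest entries the mean was 1.1, the loci held 6 and 325 of all microRNA genes had a peak. Leaving out 1 replicate and counting all entries of the other, the mean was 2.1 to 3.4, the loci held 13 to 20, and 6 to 8 of the 10 genes had a peak; Mir29a and Mir29b-1 were the 2 gained with A alone. Away from protein-coding gene ends, an alternative chosen after seeing the data, 329 of all microRNA genes had a peak. Counts of single genes changed with the window and with stricter lists: Mir143 and Mir145a had 6 at 20 kb and 3 at 10 kb, and Mir27b had 0 at 5 kb and in both stricter lists. Mir21a, Mir199a-2 and Mir214 had 1 each in both stricter lists. With a reciprocal overlap of 50% required, Mir21a had 2 in place of 3. When all entries of A were counted without B, Mir143 and Mir145a had 10 each. Mir221 and Mir222 had 0 throughout. Depth is unknown, so a missing peak may lie below detection. No paired analysis was possible because there is 1 group.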

Other observations

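Over the whole table, the most replicated peaks within 20 kb were 7, at Mir324, Mir7014 and Mir3101, each inside a protein-coding gene. Mir143, Mir145a and Mir7054 followed with 6. Of the 1228 microRNA genes, 825 lay inside a protein-coding gene, and 52.8% of these had a replicated peak, against 35.5% of the 403 outside. A replicated peak overlapped the microRNA gene itself at 33 genes, none of them among the 10 described.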
